A study of Mus musculus with 40 samples.

Results

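Cloned mouse embryos at the 2-cell stage were cultured with or without α-amanitin, and their transcripts were compared on Affymetrix expression arrays. The members are the 8 arrays of 2-cell embryos made by somatic cell nuclear transfer (SCNT), of 39 arrays in all. They were chosen by their titles: 4 arrays carry an A before the replicate number (with amanitin) and 4 do not (without). All embryos of the comparison are B6D2, with the nucleus of a cumulus cell, a somatic cell that surrounds the oocyte, and the donor was female. The labels name MEMα with amanitin as the medium for all 4 arrays with the letter A. They name MEMα for 3 of the 4 untreated arrays and no medium for replicate 2. Dose, start and length of the exposure are not given in the sources used here, and nothing says whether replicates came from separate cultures. The p-values of genes therefore measure the spread between arrays within groups, pooled over the 10 groups of all 39 arrays. They do not measure a spread between cultures known to be separate. Fertilized 2-cell embryos with and without amanitin (4 arrays each) and SCNT 1-cell embryos with and without amanitin (4 and 3 arrays) served for comparison. Their titles give B6D2 embryos too. For the fertilized embryos and for 1 of the SCNT 1-cell arrays with the letter A the labels give neither medium nor treatment, so amanitin was read there from that letter alone.

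α-Amanitin is a cyclic peptide of mushrooms that binds RNA polymerase II and slows its movement along DNA. Polymerase I, which makes ribosomal RNA, is resistant, and polymerase III is far less sensitive. A mouse embryo starts with RNA stored by the oocyte. It makes a little RNA at the 1-cell stage and switches on many of its own genes at the 2-cell stage, the major activation of the genome. During the same period stored maternal transcripts are broken down.

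The measured value is the deposited intensity of a probe set, a group of probes for 1 transcript. It was quantile normalized and is given as log2 after adding a constant of 6.9, and 14916 genes passed the filter on dim probe sets. A difference is amanitin minus untreated on this scale, with its standard error (SE) from the spread pooled over all groups. A gene is called lower or higher when limma's adjusted p over all 14916 genes is below 0.05. Levels of different genes cannot be set against each other, since each probe set binds with its own strength.

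Amanitin changed most of the measured transcriptome of cloned 2-cell embryos, and its deepest effects were losses. Of the genes tested, 4424 (29.7%) were lower and 5903 (39.6%) higher, while 4589 were not called. The arrays of the groups did not overlap for 9048 genes (60.7%). At least a 4-fold fall was seen for 2160 genes (14.5%) and at least a 4-fold rise for 1226 (8.22%). At 16-fold the counts were 584 lower and 3 higher. At 32-fold 249 genes were still lower. Of the 2160 genes, 647 lay below the overall median of 5.34 on all 4 amanitin arrays. A difference measured near that level depends partly on the constant. The median difference of all genes was 0.28.

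Nearly all falls held under the scalings tried, and most rises did not hold when arrays were scaled on added control RNA. Each array carries control RNA, as a rule added in fixed amounts. Hybridization controls (18 probe sets) are added with the labelled sample, and poly(A) controls (24 probe sets) usually to the RNA before labelling. Whether the amounts were equal here was not tested. The hybridization controls averaged 10.88 ± 0.23 with amanitin and 9.59 ± 0.15 without (SD, n = 4 each; log2 intensity as deposited). The difference was 1.30 (exact permutation test, 2-sided, p = 0.0286, the smallest that 4 against 4 arrays allow). The poly(A) controls averaged 10.36 ± 0.24 with amanitin and 8.60 ± 0.44 without, a difference of 1.76 (exact permutation p = 0.0286). On the SCNT amanitin arrays the embryos' own signal was thus smaller beside the added RNA. In fertilized 2-cell embryos the hybridization controls differed by 0.44. There the poly(A) controls averaged 7.42 ± 0.22 with amanitin and 7.55 ± 0.62 without (SD), a difference of -0.13. When the arrays were scaled on the hybridization controls, 8796 genes were lower and 1511 higher, with a median difference of -0.90. Scaled on the poly(A) controls, 9277 were lower and 351 higher, with a median of -1.52. Both controls were brighter on amanitin arrays, so scaling on them lowers every difference and could hardly undo a fall. That 4422 of the 4424 genes called lower remained lower on the hybridization controls was thus nearly fixed in advance. Of the 5876 genes called higher that could be followed on these controls, 1510 remained higher and 1096 turned lower. In the values as deposited, 4364 of 4421 genes remained lower and 5472 of 5895 remained higher. Lower under all 5 scalings were 4260 genes, and higher under all 5 were 341. Rises below are therefore rises relative to the bulk of transcripts on the array, and control-scaled values are given with those described. Fewer surviving cells, less RNA per cell and unequal amounts of sample or control RNA cannot be told apart in these arrays. None of these was tested. All 12 oocyte and early embryo markers lay above the overall median on all 8 arrays. So did 4 of 11 measured cumulus and granulosa, 1 of 5 spermatid and 1 of 2 blood markers. These markers cannot check the origin of the nucleus or the treatment.

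**Figure D1:**
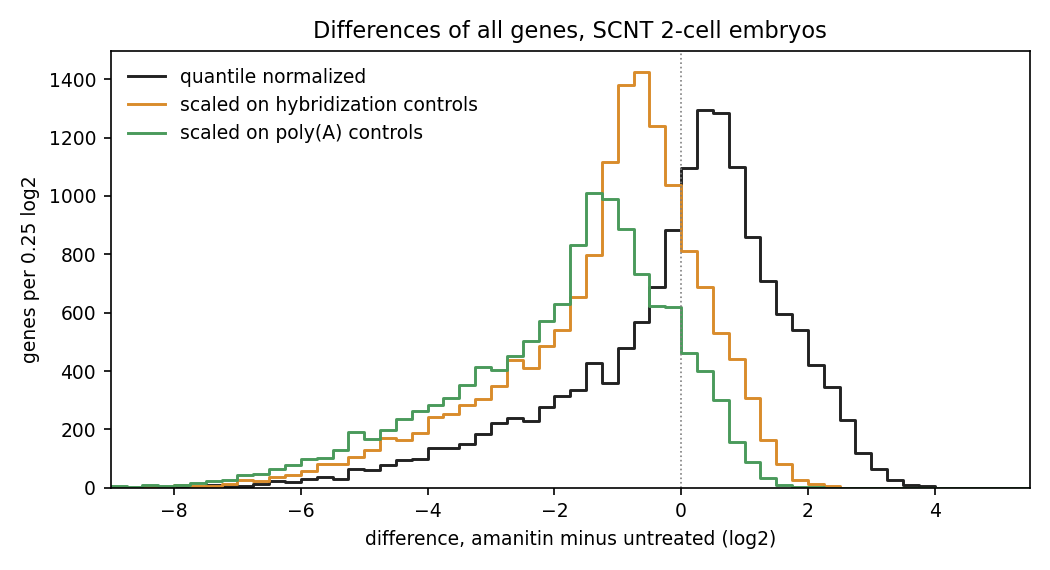
Number of genes per 0.25 log2 of difference (amanitin minus untreated) in SCNT 2-cell embryos, under quantile normalization and after scaling on each kind of control RNA. The long tail to the left is present in all 3 curves, while the median moves to -0.90 and -1.52 after scaling on the controls.

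The deepest losses were in an enzyme of purine synthesis, cathepsins, homeobox genes of the early embryo and a shared subunit of polymerases I and III. Ppat, whose product starts purine synthesis, measured 2.92, 3.02, 3.31 and 3.09 with amanitin against 10.87, 11.16, 11.17 and 11.34 without. Its arrays were far apart and those with amanitin lay near the floor of the scale. The difference was -8.05 (SE 0.22, adjusted p = 5.41e-29), and -9.40 or -6.58 with the constant at the 5th or 40th percentile of intensities. As the mean of its probe sets it was -4.40. Ctsl, the lysosomal protease cathepsin L, measured 4.97, 5.04, 5.44 and 4.89 with amanitin against 13.05, 13.05, 12.92 and 12.88 without. Its difference was -7.89 (SE 0.17), and -8.13 or -7.35 with the other constants, and no array of either group came near the other. Ctsc, cathepsin C, fell by 7.95 (SE 0.37). Ppp2cb, a catalytic subunit of protein phosphatase 2A, measured 3.49, 3.40, 3.50 and 3.50 with amanitin against 11.36, 11.34, 11.38 and 11.35 without. Within either group its arrays spanned no more than 0.1, beside a difference of -7.89 (SE 0.32). Riox1, a ribosomal oxygenase of the nucleolus, fell by 7.52 (SE 0.20), with all 4 amanitin arrays at or below 3.61. Of the 94 genes named here, 68 were lower, and in 42 of these the amanitin mean lay below the overall median.

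**Figure D2:**
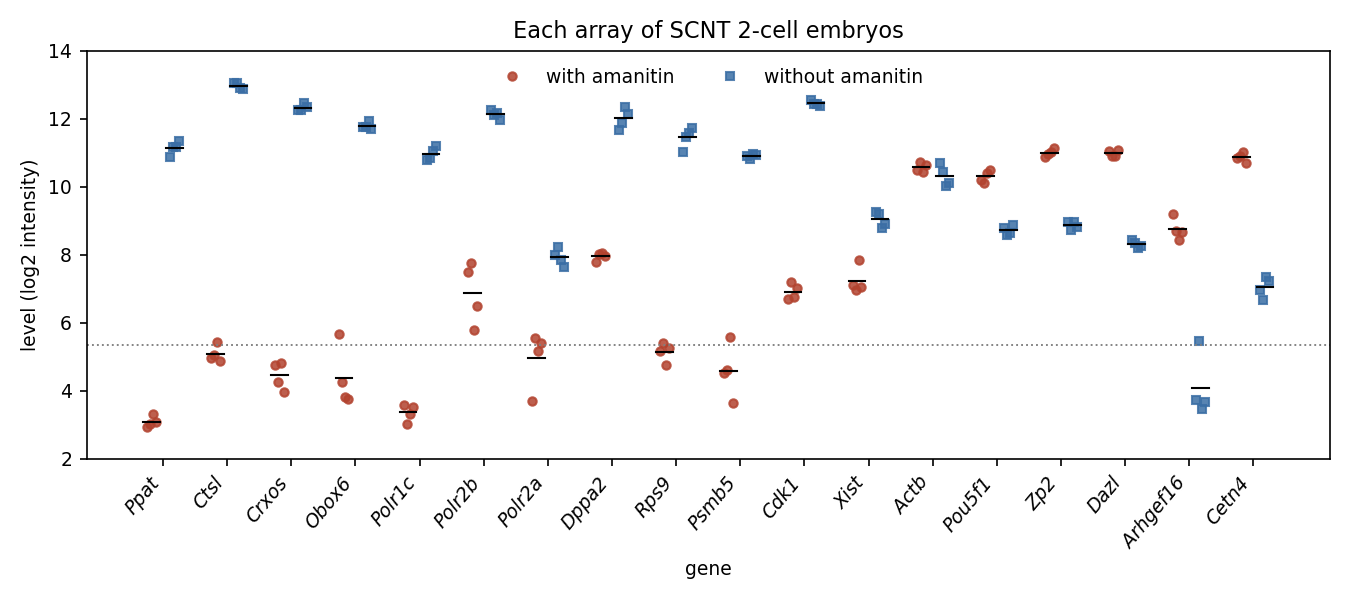
Level (log2 intensity, quantile normalized) of 18 genes on each of the 8 arrays, with amanitin (circles, left) and without (squares, right), with group means as bars and the overall median of 5.34 dotted. Ppat to Xist are lower on every amanitin array, the Actb arrays overlap, and Pou5f1 to Cetn4 are higher on every amanitin array.

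Genes expressed from the 2-cell stage had the lowest median of the lists examined. Of 28 measured 2-cell stage activated genes, 22 were lower, 5 higher and 1 was not called, with a median of -4.06 beside 0.28 for all genes and 29.7% of all genes lower. In the values as deposited the median of this list was -3.47, beside -3.17 for cytosolic ribosomal proteins. The lists were chosen with earlier results of these data known, so their order is given as a description. Pramel7, a gene of the PRAME-like family active in early embryos, measured 4.08, 3.97, 3.54 and 3.54 with amanitin against 11.64, 11.96, 11.74 and 11.56 without. Obox6, an oocyte-specific homeobox family gene, measured 5.68, 4.24, 3.82 and 3.76 with amanitin against 11.76, 11.75, 11.93 and 11.69 without. Neither gene had overlapping arrays, and replicate 1 was the highest amanitin array for both. The difference was -7.94 (SE 0.28) for Pramel7 and -7.41 (SE 0.29) for Obox6. Crxos, a homeobox gene near Crx, fell by 7.88 (SE 0.36) on the probe set that stood for it and had a difference of -2.27 on its other probe set. Leaving out any 1 untreated array, or using the values as deposited, put the second probe set in its place, with -2.15 to -2.33. Calcoco2, an autophagy receptor, fell by 7.03 (SE 0.40), and Dppa2, a chromatin factor of pluripotent cells, fell by 4.05 (SE 0.13). Dppa2 kept a level of 7.96 ± 0.12 with amanitin, against 12.01 ± 0.29 without (SD, n = 4 each).

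Zfp352, a zinc finger gene switched on early in mouse embryos, was lower with amanitin at both stages. At the 2-cell stage it measured 7.39, 6.55, 7.46 and 6.59 with amanitin against 11.61, 11.20, 11.09 and 10.99 without, a difference of -4.23 (SE 0.25, adjusted p = 4.26e-18). At the 1-cell stage it measured 6.27 ± 0.28 with amanitin (n = 4) and 9.38 ± 0.28 without (n = 3), a difference of -3.11 (SE 0.27, adjusted p = 1.26e-09). The drug changed little else at the 1-cell stage, where 52 of the 14916 genes were lower (0.349%) and 12 higher (0.0805%). Of those 52, 36 (69.2%) were also lower at the 2-cell stage, which is 0.814% of the 4424 genes lower there, while 12 were higher and 4 not called. Over all genes 29.7% were lower at the 2-cell stage. Their median difference was -1.05 at the 1-cell and -3.57 at the 2-cell stage, and no array is shared between the stages. Ppat (-1.16, SE 0.23), Psat1 (-1.90, SE 0.41), Glul (-1.61, SE 0.27) and Ctsl (-0.84, SE 0.18) were among the genes already lower at the 1-cell stage.

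Trim60, a ubiquitin ligase gene of the 2-cell list, was higher with amanitin, with 9.48, 9.78, 9.64 and 9.27 against 7.53, 7.11, 7.66 and 7.23 without. The difference of 2.16 (SE 0.12) shrank to 0.58 on the hybridization controls and 0.10 on the poly(A) controls, where it was not called. In 1-cell embryos with amanitin Trim60 stood at 10.50 ± 0.10 (n = 4), above its level in either 2-cell group.

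Most of the genes that fell most lay above the median of all values in 1-cell embryos with amanitin, but a smaller share of them than of all genes. That median is a cut on intensity and not a limit of detection. The 584 genes lower by at least 16-fold had a median level of 6.26 in 1-cell embryos with amanitin, 4.88 in 2-cell embryos with amanitin and 10.04 in untreated 2-cell embryos. Of these genes, 61% lay above the overall median on all 4 amanitin arrays of 1-cell embryos and 20% below it on all 4. The shares over all genes were 67.5% and 9.65%. In the 1226 genes higher by at least 4-fold, 95.1% lay above the median on all 4 arrays of 1-cell embryos with amanitin. Their median level was 8.51 in 1-cell embryos with amanitin, 9.27 in 2-cell embryos with amanitin and 6.76 in untreated 2-cell embryos. These sets were formed from the 2-cell difference, so only the 1-cell levels carry separate measurements, and they are given as a description.

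**Figure D3:**
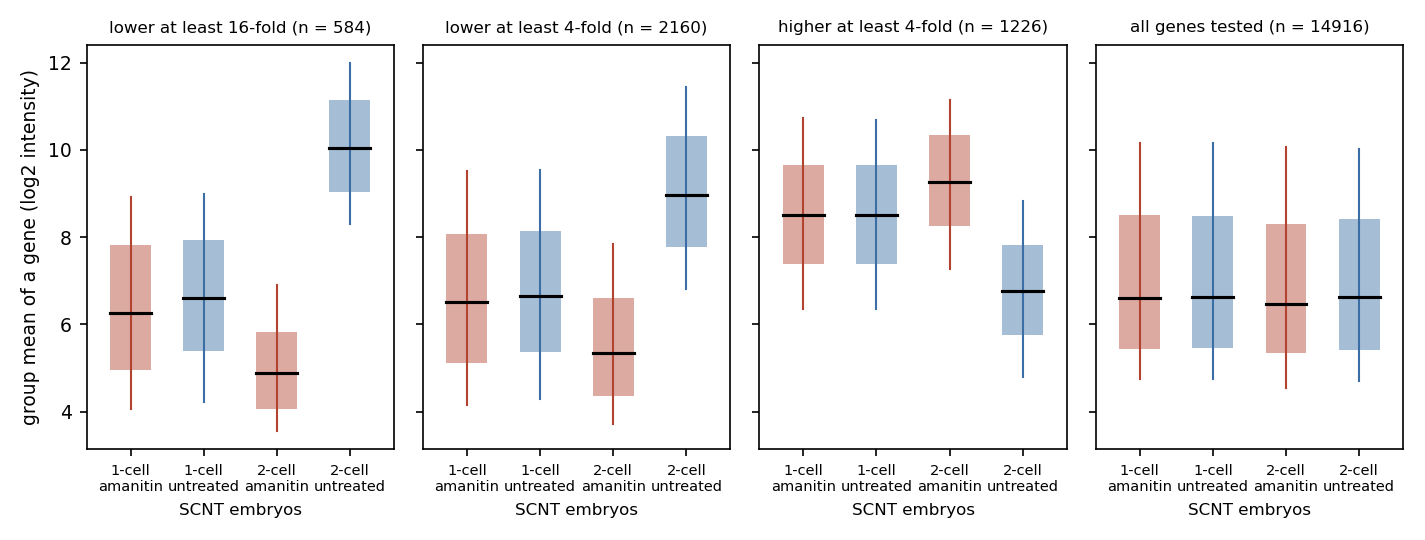
Levels of genes (group means, log2 intensity) in 4 groups of SCNT embryos, for genes lower by at least 16-fold, lower by at least 4-fold, higher by at least 4-fold, and all genes tested. Boxes span the middle quartiles with the median as a line, and whiskers run from the 10th to the 90th percentile. The genes that fell rise above their 1-cell level only in untreated 2-cell embryos (10.04 against 6.26 for the 16-fold set), and the genes that rose are lowest in untreated 2-cell embryos (6.76).

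The machinery of transcription itself was among the transcripts lost. Of 11 measured subunits of RNA polymerase II, the drug's target, 9 were lower, 1 higher and 1 was not called, with a median of -2.77. Polr2a, the largest subunit and the one that binds amanitin, measured 3.70, 5.55, 5.16 and 5.40 with amanitin against 8.01, 8.24, 7.85 and 7.65 without. Replicate 1 was the lowest of the treated arrays, and every treated array lay below every untreated one. The difference was -2.98 (SE 0.25, adjusted p = 1.11e-13). Polr2b, the second largest subunit, measured 7.49, 7.76, 5.79 and 6.48 with amanitin against 12.27, 12.12, 12.16 and 11.97 without, a difference of -5.25 (SE 0.23). Polr2h, a small subunit shared by all 3 polymerases, fell by 5.60 (SE 0.28). Polr2c, which helps to assemble the enzyme, went the other way, with 12.07, 12.11, 12.18 and 12.08 against 11.10, 11.11, 11.02 and 11.09 without. Its difference of 1.03 (SE 0.07) was 0.26 on the hybridization controls and -0.22 on the poly(A) controls, not called on either.

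Of 18 measured subunits of RNA polymerases I and III, 14 were lower, 3 higher and 1 was not called (median -2.95). Polr1c, a subunit of both, measured 3.59, 3.02, 3.33 and 3.51 with amanitin against 10.79, 10.85, 11.04 and 11.19 without. No array was near the other group. The difference was -7.61 (SE 0.18), -8.63 or -6.30 with the other constants, and -5.42 on its other probe set. Among 30 elongation factors 20 were lower and 6 higher (median -1.25). The elongation kinase P-TEFb and its inhibitor both fell. Cdk9, the kinase that releases paused polymerase II, fell by 2.83 (SE 0.15), with -1.73 as the mean of its probe sets. Its partner cyclin Ccnt1 fell by 2.98 (SE 0.27). Hexim1, which holds P-TEFb inactive, measured 6.39, 3.76, 5.34 and 6.17 with amanitin against 9.97, 9.45, 9.99 and 9.87 without (difference -4.41, SE 0.42). Supt5, part of the pausing and elongation factor DSIF, fell by 3.25 (SE 0.13). TFIID and general transcription factors were mixed: 17 of 32 were lower, 11 higher and 4 not called (median -0.51), and 24 and 4 on the hybridization controls. Gtf2f2, a subunit of TFIIF, fell by 4.45 (SE 0.22). Of 31 Mediator subunits 21 were lower and 9 higher (median -1.34).

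Cytosolic ribosomal proteins fell nearly as a whole. Of 47 measured, 43 were lower and the other 4 not called, with a median of -3.38. Rps9, of the small subunit, measured 5.17, 5.42, 4.75 and 5.24 with amanitin against 11.03, 11.46, 11.59 and 11.73 without, a difference of -6.31 (SE 0.19), and -3.46 when only unique probe sets were used. Rps19, another small subunit protein, fell by 5.84 (SE 0.36). Of 91 ribosome assembly factors 83 were lower, 4 higher and 4 not called (median -2.97). Rrp12, needed for export of ribosomal subunits, measured 3.17, 3.13, 3.13 and 3.23 with amanitin against 8.70, 8.97, 9.34 and 9.43 without. Surf6, a nucleolar assembly factor, fell by 6.02 (SE 0.21), with -3.55 as the mean of its probe sets. The 18S ribosomal RNA, a product of polymerase I that carries no regular poly(A) tail, went the other way. Its probe sets averaged 13.15 ± 0.33 with amanitin and 10.81 ± 0.95 without (SD, n = 4 each; as deposited; exact permutation p = 0.0286), a difference of 2.34 beside 1.30 for the hybridization and 1.76 for the poly(A) controls.

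Other parts of protein synthesis fell with the ribosome. Of 42 translation factors 34 were lower and 6 higher (median -1.99). Eif3c, a subunit of initiation factor 3, measured 4.97, 6.59, 5.40 and 5.51 with amanitin against 11.63, 11.49, 11.61 and 11.76 without, and replicate 2 was the highest of the treated arrays. Its difference was -6.01 (SE 0.21). Of 22 cytosolic tRNA synthetases 18 were lower and 2 higher (median -2.17). Aars, which loads alanine, fell by 4.48 (SE 0.22). Of 44 spliceosomal snRNP and LSm proteins 36 were lower and 6 higher (median -2.51). Sf3b6, which sits at the branch point in the U2 snRNP, fell by 5.73 (SE 0.27), with 3.40 in amanitin replicate 3 below the 5.25 to 5.60 of the others. SR proteins and their kinases were less one-sided, with 11 of 19 lower and 6 higher. Tra2a, a splicing regulator, fell by 6.47 (SE 0.20), with -3.99 as the mean of its probe sets.

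Proteasome subunits fell as well, 36 of 43 measured being lower, 6 higher and 1 not called (median -2.68). Psmb5, a catalytic subunit, measured 4.52, 4.62, 5.57 and 3.65 with amanitin against 10.90, 10.81, 10.95 and 10.92 without, a difference of -6.31 (SE 0.22). Psmb4, of the same core ring, fell by 5.92 (SE 0.19). Psmf1, an inhibitor of the proteasome, was higher, by 1.86 (SE 0.15), but by 0.27 on the hybridization controls and -0.20 on the poly(A) controls, not called on either. Nuclear genes of the mitochondrion gave a like picture. Of 41 subunits of respiratory complexes II to V, 35 were lower and 4 higher (median -2.21), and of 34 in complex I, 26 and 3 (median -1.80). Atp5g1, which encodes the ring subunit of ATP synthase, measured 3.46, 3.94, 4.07 and 3.97 with amanitin against 11.32, 10.50, 10.96 and 11.16 without. The groups were far apart, and the difference was -7.12 (SE 0.21), or -7.77 and -6.09 with the other constants. Uqcrfs1, the Rieske protein of complex III, fell by 6.06 (SE 0.22), and Ndufv3, of complex I, fell by 5.08 (SE 0.48). Of 27 mitochondrial import genes 20 were lower and 4 higher. Timm17a, of the inner membrane channel, fell by 6.10 (SE 0.18). Of 74 mitochondrial ribosomal proteins 56 were lower and 10 higher (median -1.82), and Mrpl43 fell by 5.54 (SE 0.32).

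Enzymes of nucleotide and amino acid synthesis were among the deepest falls. Of 25 measured purine and pyrimidine genes 19 were lower, 4 higher and 2 not called (median -1.68). Besides Ppat they include Prps1, which makes the ribose phosphate that both pathways use (-6.42, SE 0.38), and Nme2, a nucleoside diphosphate kinase (-6.77, SE 0.27). Serine and folate genes were divided, with 9 of 21 lower, 6 higher and 6 not called. Psat1, of serine synthesis, measured 4.99, 3.71, 3.94 and 4.95 with amanitin against 11.93, 12.39, 12.41 and 12.44 without (difference -7.89, SE 0.38). Gldc, of the glycine cleavage system, fell by 6.87 (SE 0.21). Glul, glutamine synthetase, fell by 7.72 (SE 0.25) on its main probe set and by 4.82 on the other. Its value lay between -4.93 and -4.73 whenever an untreated array was left out and the other probe set took its place. Of 27 glycolysis and lactate genes 15 were lower and 7 higher (median -0.95). Ldha, which interconverts pyruvate and lactate, measured 5.46, 5.63, 5.16 and 3.94 with amanitin against 8.65, 7.65, 6.47 and 8.31 without, and its untreated arrays were widely spread (difference -2.72, SE 0.33).

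Lysosomal genes included several of the deepest losses, although the list as a whole had a median of -1.47 (22 of 32 lower, 8 higher, 2 not called). Ctsz, cathepsin Z, measured 3.34, 3.08, 3.09 and 3.22 with amanitin against 9.90, 9.78, 9.46 and 9.91 without. Ctsb, cathepsin B, fell by 6.18 (SE 0.13, adjusted p = 9.05e-32) on the probe set that stood for it. Its 3 probe sets ran from that value to -1.69. Among stress-linked genes, Hspa1a, an inducible chaperone, fell by 4.57 (SE 0.29), and Sesn2, a sestrin induced by stress, fell by 4.55 (SE 0.21). Cdkn1a, the cell cycle inhibitor p21, measured 6.54, 6.19, 7.11 and 6.34 with amanitin against 9.34, 9.81, 9.63 and 9.22 without (difference -2.96, SE 0.24). Gclc, the first enzyme of glutathione synthesis, fell by 5.65 (SE 0.32). The lists of p53 targets (14 of 28 lower, 11 higher), the integrated stress response (17 of 27 lower, 7 higher) and antioxidant genes (19 of 37 lower, 11 higher) were each mixed. On the hybridization controls these lists had 18, 19 and 28 genes lower and 2, 4 and 2 higher.

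Cell cycle and replication genes fell in part. Cdk1, the kinase that drives entry into mitosis, measured 6.70, 7.20, 6.75 and 7.01 with amanitin against 12.55, 12.44, 12.44 and 12.38 without, a difference of -5.54 (SE 0.14, adjusted p = 5.66e-30). Of 49 replication licensing and DNA polymerase genes 32 were lower and 10 higher (median -1). Rpa2, of the single-strand binding protein RPA, fell by 6.53 (SE 0.21). Cdc6, which loads the replicative helicase, measured 3.54, 6.16, 5.38 and 2.99 with amanitin against 8.19, 9.20, 8.99 and 9.21 without, so its treated arrays were widely spread (difference -4.38, SE 0.38). Of 31 cyclins and inhibitors 13 were lower and 12 higher, and 19 and 3 on the hybridization controls.

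Calls among chromatin genes went in both directions, and most calls of rises depended on the scaling, as they did over all genes. Over all genes 29.7% were lower and 39.6% higher, and on the hybridization controls 8796 of 15188 were lower and 1511 higher. Of 38 measured genes of Polycomb complexes and of H3K27 and H3K4 enzymes, 8 were lower, 22 higher and 8 not called (median 0.54). On the hybridization controls 24 were lower and 3 higher (median -0.70), and on the poly(A) controls 28 of 37 were lower. Kdm5b, a demethylase of H3K4, was an exception, with 5.53, 5.15, 5.43 and 5.79 with amanitin against 11.34, 11.56, 11.61 and 11.52 without. It fell by 6.03 (SE 0.14), with -2.81 as the mean of its probe sets. Of 34 histone deacetylases and acetyltransferases 13 were lower and 13 higher, and 26 and 3 on the hybridization controls. Hdac1, a deacetylase of early embryos, fell by 5.43 (SE 0.23). Trim28, a corepressor that guards imprints, fell by 4.21 (SE 0.15) and kept a level of 8.26 ± 0.22 with amanitin, against 12.47 ± 0.11 without (SD, n = 4 each). The protein arginine methyltransferases and their partners fell more evenly, with 9 of 12 lower and 2 higher (median -2.98). Wdr77, the partner of PRMT5, fell by 7.45 (SE 0.28), with -3.56 when only unique probe sets were used. Prmt6 measured 3.29, 4.54, 3.24 and 3.87 with amanitin against 10.77, 10.83, 10.68 and 10.97 without (difference -7.08, SE 0.41). Dnmt1, the maintenance DNA methyltransferase, measured 8.37, 8.16, 8.51 and 7.41 with amanitin against 8.90, 9.60, 9.14 and 8.63 without. That difference of -0.95 (SE 0.21) was small beside the others, and -2.35 on the hybridization controls.

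Of 37 measured pluripotency and first-lineage factors 15 were lower, 13 higher and 9 not called (median -0.14), beside 29.7% lower and 39.6% higher over all genes. On the hybridization controls 25 were lower and 3 higher (median -1.28). Fbxo15, a target of the pluripotency network, measured 8.34, 8.14, 7.18 and 7.23 with amanitin against 12.76, 12.95, 12.93 and 13.02 without (difference -5.19, SE 0.17). Zfp42, the marker Rex1, fell by 3.37 (SE 0.32). Pou5f1, the pluripotency factor OCT4, which the oocyte stores as RNA, measured 10.20, 10.11, 10.42 and 10.50 with amanitin against 8.79, 8.57, 8.64 and 8.88 without. The difference of 1.59 (SE 0.11) was 0.21 on the hybridization controls and -0.27 on the poly(A) controls, not called on either. Sox2, its partner, lay near the overall median, with 5.59, 4.60, 5.86 and 6.13 with amanitin and 3.33, 4.83, 4.50 and 4.31 without. The Sox2 groups overlapped, and the difference of 1.30 (SE 0.29) was 0.35 and not called on the hybridization controls. Myc, a growth-promoting factor, measured 5.59, 3.16, 3.58 and 4.59 with amanitin against 6.25, 6.57, 7 and 6.69 without (difference -2.39, SE 0.42). Tead4, which sets the trophectoderm programme, fell by 3.47 (SE 0.39). Wwtr1, the TEAD coactivator TAZ, fell by 3.83 (SE 0.30), with -1.07 when only unique probe sets were used. Of 16 TEAD and YAP pathway genes 5 were lower and 8 higher, while 12 were lower on the hybridization controls and 14 on the poly(A) controls.

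**Figure D4:**
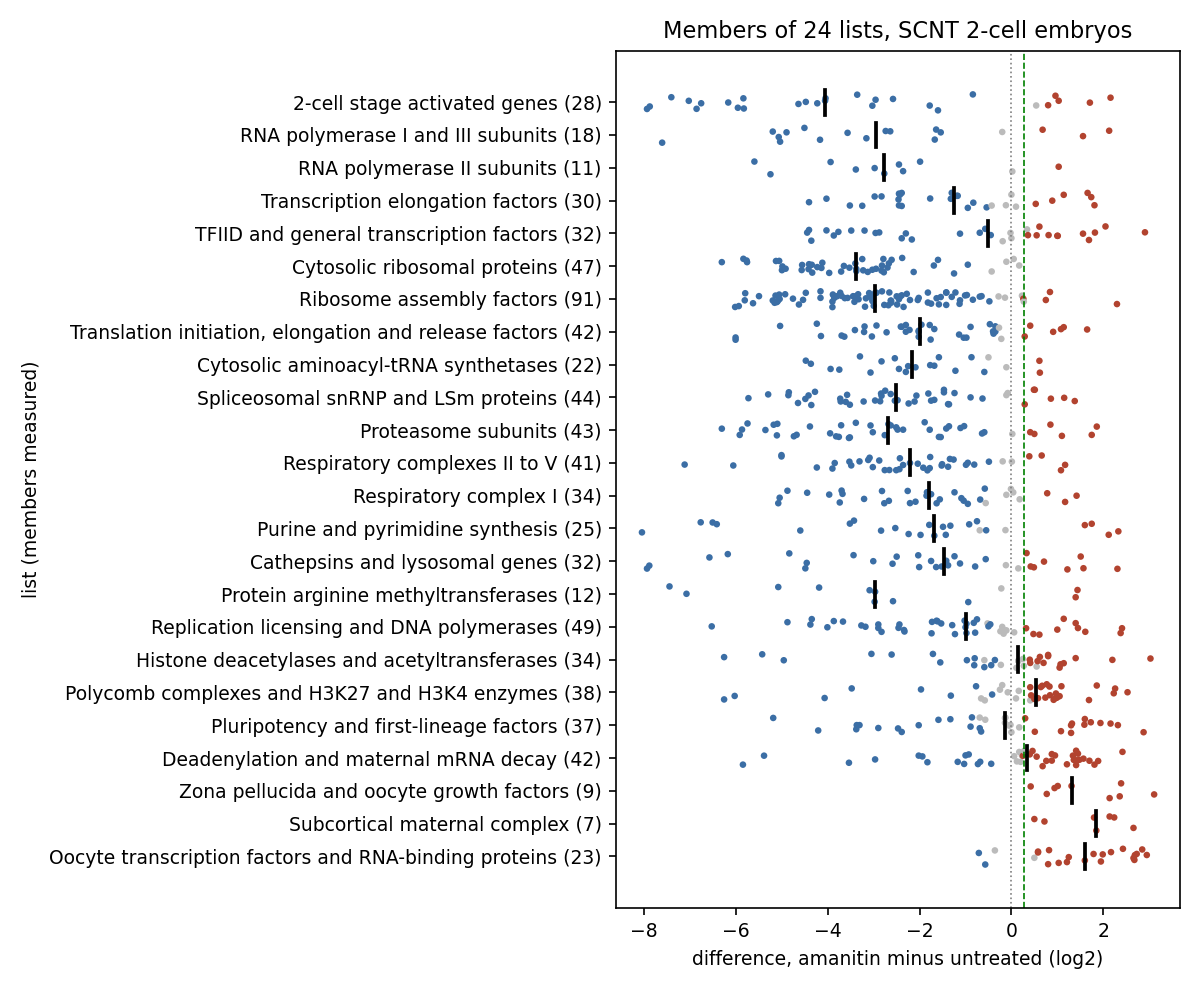
Differences (log2, amanitin minus untreated) of the measured members of 24 gene lists in SCNT 2-cell embryos, with called falls in blue, called rises in red, members not called in grey, and each list's median as a bar. The dashed line is the median of all genes (0.28). The 2-cell stage list reaches the lowest median (-4.06), and the 3 oocyte lists at the bottom lie to the right (1.31 to 1.85).

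Transcripts stored by the oocyte were higher with amanitin relative to the rest of the array. All 9 measured zona pellucida and oocyte growth factor genes were higher (39.6% of all genes were), as were all 7 of the subcortical maternal complex, a protein assembly needed for cleavage. Of 23 oocyte transcription factors and RNA-binding proteins 19 were higher and 2 lower. The medians of these lists were 1.31, 1.85 and 1.60 as reported, 0.42, 0.61 and 0.64 on the hybridization controls, and -0.06, 0.14 and 0.15 on the poly(A) controls. Zp2, a zona pellucida protein, measured 10.88, 10.97, 11.02 and 11.14 with amanitin against 8.95, 8.73, 8.97 and 8.81 without. The groups were clearly apart. The difference of 2.13 (SE 0.10) was 0.86 on the hybridization controls and 0.38 on the poly(A) controls, the last not called. Zp1, of the same coat, was higher by 2.39 (SE 0.13), with 0.47 on the poly(A) controls, not called. Zp3, the third zona protein, was higher by 1.00 (SE 0.12) as reported but lower on both controls (-0.45 and -0.93). Gdf9, an oocyte growth factor, behaved likewise, with 0.77 (SE 0.08) as reported and -0.41 and -0.89 on the controls.

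In the subcortical maternal complex, Ooep measured 10.13, 10.37, 10.53 and 10.34 with amanitin against 8.33, 8.34, 7.83 and 7.90 without (difference 2.24, SE 0.12, and 0.33 on the poly(A) controls, not called). Nlrp5 was higher by 2.14 (SE 0.09), and remained so on both controls (1.2 and 0.72). Padi6 was higher by 1.85 (SE 0.12) and stood at 0 on the poly(A) controls. Dazl, a germ cell RNA-binding protein, measured 11.06, 10.92, 10.92 and 11.09 with amanitin against 8.44, 8.35, 8.19 and 8.25 without. Its rise of 2.69 (SE 0.14) remained called on both controls (1.35 and 0.88). Among 42 genes of deadenylation and maternal mRNA decay 14 were lower and 22 higher (median 0.34), and 25 and 8 on the hybridization controls (median -1.06). Btg4, an adaptor that brings the deadenylase to maternal RNA, was higher by 1.21 (SE 0.08), and Cnot6l, a deadenylase subunit, by 1.42 (SE 0.09). On the poly(A) controls neither was called (0.16 and 0.42). Mos, the kinase that holds the egg in meiosis, lay below the overall median in both groups, with 4.01, 5.04, 5.12 and 5.03 with amanitin and 3.75, 3.82, 3 and 3.51 without. Its difference of 1.28 (SE 0.24) was not called on the hybridization controls (0.56).

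The largest rises were smaller than the largest falls. Those described here held on both kinds of control, on the probe set that stood for each gene. Arhgef16 measured 9.20, 8.71, 8.42 and 8.66 with amanitin against 3.71, 5.46, 3.48 and 3.67 without. Replicate 2 was the highest untreated array, and it still lay below every treated one. The difference of 4.67 (SE 0.28, adjusted p = 2.52e-18) was 3.15 on the hybridization controls and 2.85 on the poly(A) controls. Slc41a3, a magnesium transporter, measured 10.41, 10.39, 10.54 and 10.57 with amanitin against 5.91, 6.28, 5.80 and 6.38 without. Its difference of 4.39 (SE 0.49) was 2.86 and 2.41 on the controls. As the mean of its probe sets it was 2.47, and 0.55 on its other probe set. Bet1, a protein of vesicle transport, was higher by 3.83 (SE 0.23), with 1.95 as the mean of its probe sets and 0.08 on its other probe set. Gmds, an enzyme of GDP-fucose synthesis, was higher by 3.81 (SE 0.16). Ccdc14, a centriolar satellite protein, was higher by 3.85 (SE 0.27), and Cetn4, a centrin, by 3.82 (SE 0.14). On the poly(A) controls the rises of these last 4 genes were 1.83, 1.76, 2.11 and 1.90. Most of these transcripts were present in 1-cell embryos with amanitin, where Arhgef16 stood at 8.73 ± 0.43 and Ccdc14 at 10.37 ± 0.12 (SD, n = 4). Slc41a3 stood at 7.58 ± 0.76 there, below its level of 10.48 ± 0.09 in 2-cell embryos with amanitin.

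Noncoding RNAs were measured for 12 listed genes, of which 6 were lower, 2 higher and 4 not called. Their median was -0.97, and over all genes 29.7% were lower and 39.6% higher. Only noncoding RNAs that were lower are described here. Snhg1, a host gene of small nucleolar RNAs, measured 7, 6.19, 7.87 and 5.81 with amanitin against 10.82, 11.05, 11.10 and 11.39 without (difference -4.38, SE 0.23). Gas5, another such host, fell by 2.69 (SE 0.15). Xist, the RNA that silences an X chromosome in female cells, measured 7.10, 6.96, 7.85 and 7.04 with amanitin against 9.26, 9.21, 8.79 and 8.89 without. All 4 treated arrays lay below the untreated ones, with a difference of -1.80 (SE 0.18), and -3.06 and -3.54 on the controls. On the X chromosome 29.4% of 479 genes were lower, beside 29.7% overall. Actb, a cytoskeletal actin often taken as constant, measured 10.48, 10.73, 10.44 and 10.63 with amanitin and 10.70, 10.43, 10.03 and 10.11 without. Its groups overlapped and it was not called (0.25, adjusted p = 0.0758), but it was lower on both controls (-0.90 and -1.38).

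Of 15 cumulus and granulosa cell markers 11 were measured, 1 lower and 6 higher. Summed over these markers the linear level was 730 to 986 with amanitin and 3247 to 4266 without. The difference came from Amhr2, the receptor of anti-Müllerian hormone, at 5.61, 5.59, 5.49 and 5.74 with amanitin against 11.59, 11.39, 11.87 and 11.53 without (difference -5.99, SE 0.28). In fertilized embryos, which have no donor cumulus nucleus, Amhr2 fell by 5.78, so this marker did not separate the donor cell type here. Gja1, the gap junction protein connexin 43, also on the wider cumulus list, fell by 6.39 (SE 0.25). Of 8 spermatid markers 5 were measured, with sums of 186 to 258 with amanitin and 130 to 216 without. Of 6 blood markers 2 were measured and 1 was higher, with sums of 132 to 204 with amanitin and 69 to 96 without.

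Genes that fell were shorter in the genome than genes that rose, and their promoters more often held an ETS-type sequence. The median span from start to end of the gene was 13.6 kb for genes lower by at least 16-fold and 15.2 kb for genes lower by at least 4-fold. It was 47.2 kb for genes higher by at least 4-fold and 22.1 kb for all genes. Genes not called had 17.7 kb, close to the 16.9 kb of all genes lower, while all genes higher had 32.9 kb. The contrast in span thus lay mainly in the long genes that rose. Promoters of 250 bases before and 50 after the start were taken from RefSeq (build GRCm38.p6), with 1 promoter a gene, for 11959 of the 14916 genes. The ETS-type letters CCGGAAG, searched on both strands, occurred in 27.6% of the promoters of genes lower by at least 16-fold and in 24.9% at 4-fold. They occurred in 11% of those of genes higher by at least 4-fold, in 15.5% of all genes tested and in 9.12% of all promoters in the table. The E-box CACGTG was in 14.1% of promoters in the 16-fold set, 13.2% at 4-fold and 9.52% of those of all genes. The letters GGATTA, which Obox and Crx proteins can bind, were in 9% of the 16-fold set, but in 6.13% at 4-fold. They were in 5.87% for genes not called and 5.78% for all genes, so only the 16-fold set stood apart. The median GC share was 59.7% both in the 16-fold set and in all genes. The TATA box TATAAA, on the gene's strand, was in 5.52% and 5.55% of these. Other motifs were searched and are not given. The sets were formed from the measured differences, and the shares are a description without a test.

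Of the 15 deepest named losses, 12 have a promoter in the table, and 2 of these hold the ETS-type letters within the 250 bases before the start. Beside this, 15.5% of all genes tested hold them in the full window, so the named losses are not set apart by these letters. Their stretches are shown, 5′ to 3′ on the strand of the gene, because they let the letters be read in place. The letters of the motif are in capitals, in Ppat as its reverse complement. The Ppat stretch is chr5:76951579-76951638 on the minus strand, and that of Polr1c is chr17:46248055-46248114, also on the minus strand.
Ppat: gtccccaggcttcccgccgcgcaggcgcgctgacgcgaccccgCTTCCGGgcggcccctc
Polr1c: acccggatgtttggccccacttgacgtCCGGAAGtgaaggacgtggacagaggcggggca
The motif starts 17 bases before the start of Ppat and 42 bases before that of Polr1c. The other 10 promoters do not hold these letters in that window, among them those of Ctsl, Pramel7 and Crxos.

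Fertilized 2-cell embryos answered amanitin in much the same way, on arrays that share none with the cloned ones. There 3843 genes (25.8%) were lower and 5753 (38.6%) higher. Of the 2160 genes at least 4-fold lower in SCNT embryos, 1941 (89.9%) were lower in fertilized embryos, 58 (2.69%) were higher and 161 were not called. Their median was -3.15 in SCNT and -2.50 in fertilized embryos. The SCNT median includes the choice of the genes on that difference. Of the 1226 genes at least 4-fold higher in SCNT embryos, 1156 (94.3%) were higher in fertilized embryos. The interaction, SCNT effect minus fertilized effect, was negative for 3150 genes (21.1%) and positive for 2657 (17.8%). On the hybridization controls it was negative for 5888 and positive for 387, since these controls differed by 1.30 between the SCNT groups and by 0.44 between the fertilized groups.

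Some lists fell further in the cloned embryos. Of 43 proteasome genes, 38 had a negative interaction and the rest were not called, beside 21.1% of all genes, with medians of -2.68 in SCNT and -1.21 in fertilized embryos. Among spliceosomal snRNP and LSm proteins the counts were 31 negative and 1 positive of 44 (medians -2.51 and -0.51). Mitochondrial ribosomal proteins had 47 negative and 2 positive of 74 (medians -1.82 and -0.80). Respiratory complexes II to V had 33 negative and 1 positive of 41, and complex I had 27 and 1 of 34. The 2-cell stage genes differed less, with 6 negative and 2 positive of 28 (medians -4.06 and -3.66), and ribosome assembly factors had 31 and 26 of 91. Atp5g1 showed the pattern, at 3.86 ± 0.28 with amanitin in SCNT and 7.31 in fertilized embryos, with an interaction of -4.33 (adjusted p = 6.42e-15). Polr2a fell by 2.98 in SCNT embryos and had a difference of -0.26 in fertilized ones, an interaction of -2.73 (adjusted p = 4.73e-08).

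**Figure D5:**
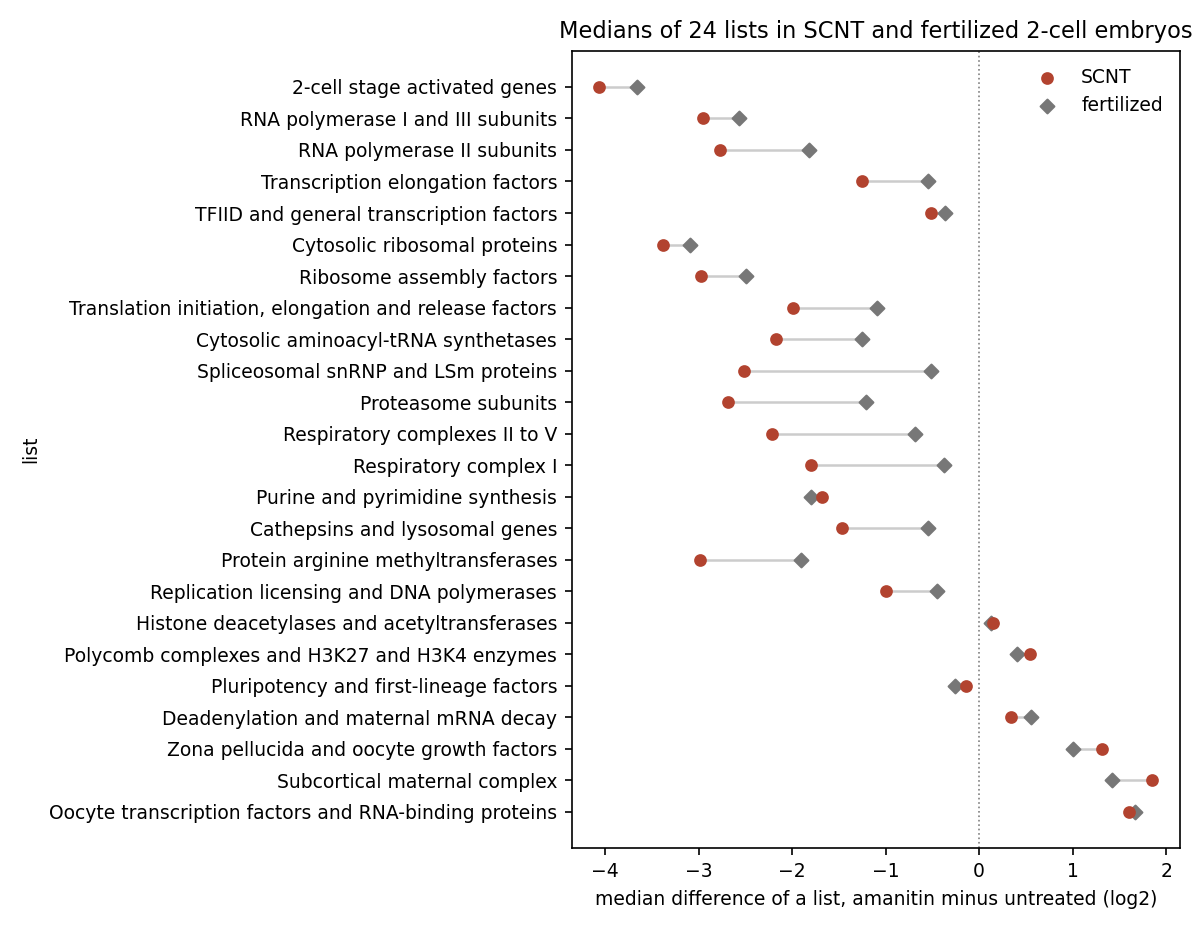
Median difference (log2, amanitin minus untreated) of 24 gene lists in SCNT (circles) and fertilized (diamonds) 2-cell embryos. Proteasome, spliceosome and respiratory lists lie further left in SCNT embryos (proteasome -2.68 against -1.21), while the 2-cell stage genes (-4.06 against -3.66) and the cytosolic ribosomal proteins (-3.38 against -3.09) lie closer together.

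Among the named genes whose effect differed with the origin of the embryo, some had opposite signs. Tardbp, an RNA-binding protein of splicing, measured 7.08, 6.92, 6.89 and 7.02 with amanitin against 10.53, 10.85, 11.09 and 10.84 without in SCNT embryos, a fall of 3.85, whereas it was higher by 2.05 in fertilized ones. The interaction of -5.90 (adjusted p = 1.56e-25) was -6.57 on the hybridization controls. With only unique probe sets the difference of Tardbp in SCNT embryos was -2.19. Wdr61, of the PAF elongation complex, fell by 6.71 in SCNT embryos and fell by 1.29 in fertilized ones (interaction -5.42), and its probe sets ran from -6.71 to -1.97 in SCNT embryos. With the 8 arrays normalized alone it fell by 2.88. Nxt2, an mRNA export cofactor, measured 9.38, 9.40, 9.63 and 9.41 with amanitin against 6.82, 6.88, 6.89 and 6.91 without, higher by 2.58, but with a difference of -1.33 in fertilized embryos. Its interaction was 3.91, and 2.84 on the hybridization controls. Its difference in SCNT embryos was 0.95 on the hybridization controls and 0.49 on the poly(A) controls, the last not called. Cep135, a centriole protein, was higher by 3.43 in SCNT and by 0.16, not called, in fertilized embryos (interaction 3.27). In SCNT embryos its difference was 1.85 and 1.39 on the controls, called on both. Mep1b, a metalloprotease, had the most positive interaction of those named (5.29, adjusted p = 3.55e-08), with 2.12 in SCNT and -3.17 in fertilized embryos. In SCNT embryos its difference was 0.84 on the hybridization controls and 0.45 on the poly(A) controls, not called on either. Its SCNT arrays were widely spread, at 5.66, 6.84, 7.13 and 7.11 with amanitin against 4.33, 5.49, 4.27 and 4.17 without. Zp3 was higher by 1.00 in SCNT and had a difference of -1.12 in fertilized embryos (interaction 2.13, and 1.19 on the hybridization controls). The medium of the fertilized embryos is not in the labels, so whether it differed from that of the cloned embryos was not tested.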

How the data were processed

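RNA of embryos was labelled and hybridized to Affymetrix mouse arrays, per the labels' protocols. The deposited values are intensity per probe set on a linear scale, and on every array their mean without the top and bottom 2% is 150. The software the authors used to compute them is not given in the sources used here. Of 40 arrays, 39 hold values. Of 45101 probe sets, 64 are controls, 31153 exceeded the median of all values on at least 4 arrays and 25931 of these have a single gene in the platform annotation.

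Intensities were increased by 6.9 (their 20th percentile), taken as log2 and quantile normalized over 39 arrays. Genes with several probe sets were represented by their brightest one on average. A gene was tested with limma 3.58.1 in R 4.3.3, with a mean for each of 10 groups, moderated variances with a trend and Benjamini-Hochberg adjustment over all 14916 genes. Figures and sequences used Python 3.11.15. In data simulated for this comparison with 200 of 14916 genes changed, 20.6%, 64.2% and 95.7% were recovered at log2 changes of 0.5, 1 and 2. The simulation changed far fewer genes than the 69.2% called in the data, and its values were not normalized again. These rates therefore need not hold for the data, and the simulation could not check the effect of scaling. The number of arrays limits the precision.

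The members and gene lists were chosen with earlier results of these data known. Named genes were the largest changes over all genes, in each list and in each interaction, with the higher group above the median of all values and the probe sets of 1 sign for the largest, plus a set of known genes. Only some of them are described. Cdk7, Klf5, Yap1, Nr5a2, Cdx2, Malat1, Pfkfb3, Rbbp4, Srsf1, Tomm20, Has2 and Socs3 were dropped after their values were seen, because their probe sets disagreed or their value moved with the settings. This reason was not applied to all genes. Crxos, Bet1 and Slc41a3, among others, also moved with the probe set and were kept, with those values given. Alternatives changed the scaling, constant, filter, probe set rule, variance model and arrays. Residuals of arrays with the same replicate number correlated between -0.05 and -0.01, so the numbers were not taken as pairs.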

Additional observations from a re-analysis of the deposited data

Results flagged for a closer look

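In 14 groups of 4 arrays of a named gene, 1 array lay far from the other 3, by Dixon's test at 95%. Both groups of each of the 94 named genes were examined. Chance flags about 1 group in 20, so many of these flags can be chance. Among amanitin arrays, Supt5 in replicate 4 was at 8.11 beside 8.63 to 8.67 on the others and Sf3b6 in replicate 3 was at 3.40 beside 5.25 to 5.60 on the others. In the same group, Psmb4 in replicate 3 was at 5.41 beside 6.23 to 6.37 on the others and Ppp2cb in replicate 2 was at 3.40 beside 3.49 to 3.50 on the others. In the same group, Xist in replicate 3 was at 7.85 beside 6.96 to 7.10 on the others and Mos in replicate 1 was at 4.01 beside 5.03 to 5.12 on the others. In the same group, Wdr61 in replicate 3 was at 2.98 beside 4.55 to 4.60 on the others and Nxt2 in replicate 3 was at 9.63 beside 9.38 to 9.41 on the others. Among untreated arrays, Nme2 in replicate 1 was at 13.02 beside 13.15 to 13.16 on the others and Psat1 in replicate 1 was at 11.93 beside 12.39 to 12.44 on the others. In the same group, Arhgef16 in replicate 2 was at 5.46 beside 3.48 to 3.71 on the others and Ccdc14 in replicate 1 was at 4.27 beside 3.86 to 3.92 on the others. In the same group, Bet1 in replicate 4 was at 6.82 beside 6.19 to 6.28 on the others and Mep1b in replicate 2 was at 5.49 beside 4.16 to 4.33 on the others.

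The effect of amanitin differed between SCNT and fertilized 2-cell embryos, by the interaction in limma with adjusted p below 0.05, for 52 named genes. Values are the SCNT effect minus the fertilized effect in log2. For RNA polymerase and elongation genes it was -2.73 for Polr2a, -0.88 for Polr2b, -3.78 for Polr2h, 0.26 for Polr2c, -0.95 for Polr1c, -1.29 for Supt5 and -5.42 for Wdr61. For genes of the early embryo it was -1.48 for Pramel7, -1.45 for Dppa2 and 1.70 for Sox2. For ribosome, translation and splicing genes it was -0.70 for Rps9, 1.09 for Surf6, -1.13 for Aars, -1.16 for Mrpl43, -1.82 for Sf3b6, -1.05 for Tra2a and -5.90 for Tardbp. For proteasome genes it was -1.10 for Psmb5, -3.36 for Psmb4 and -0.65 for Psmf1. For mitochondrial genes it was -4.33 for Atp5g1, -2.96 for Ndufv3 and -2.89 for Timm17a. For metabolic enzymes it was -1.17 for Nme2, -1.72 for Glul, -1.74 for Ldha and -3.75 for Gclc. For cathepsins it was -2.05 for Ctsl, -2.27 for Ctsz and -1.03 for Ctsb. For stress, chromatin and cell cycle genes it was -1.69 for Hspa1a, 0.79 for Sesn2, -1.09 for Kdm5b, -1.47 for Trim28 and -0.88 for Cdk1. For noncoding RNAs and actin it was -0.76 for Gas5, -1.38 for Xist and -1.07 for Actb. For oocyte transcripts it was 1.39 for Zp1, 0.65 for Zp2, 2.13 for Zp3, -0.29 for Gdf9, -1.12 for Ooep, 0.72 for Nlrp5, 0.91 for Padi6, -1.43 for Dazl, -0.88 for Mos and -0.46 for Btg4. For other genes it was 1.47 for Cetn4, 3.91 for Nxt2, 3.27 for Cep135 and 5.29 for Mep1b. On the hybridization controls 7 of these interactions were not called, those of Polr2c (-0.36) and Zp2 (-0.17), whose sign changed, and of Zp1 (0.49), Nlrp5 (0.083), Padi6 (0.026), Cetn4 (0.52) and Sesn2 (0.28).

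The effect at the 2-cell stage minus that at the 1-cell stage in SCNT embryos was -7.66 for Polr1c, -7.88 for Pramel7, -7.65 for Crxos, -7.57 for Obox6, 4.96 for Arhgef16, 5.06 for Slc41a3 and 3.94 for Cetn4, and each passed the same test.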

How the results depend on the processing

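Calls of rises depended on the scaling, and nearly all falls did not. Both controls were brighter on amanitin arrays, so scaling on them lowers every difference and could hardly undo a fall. Scaled on the hybridization controls, 8796 genes were lower and 1511 higher, with 3927 and 22 by at least 4-fold. Scaled on the poly(A) controls, 9277 were lower and 351 higher, with 5015 and 5 by at least 4-fold. The share of higher genes among calls was 57.2% as reported, 14.7% and 3.65% on these controls. The interaction with fertilized embryos was negative for 3150 and positive for 2657 genes, and for 5888 and 387 on the hybridization controls. Against 1-cell embryos these counts were 3885 and 4839, and 5443 and 1859 on the hybridization controls. Differences that changed sign were those of Polr2c (-0.22), Pou5f1 (-0.27) and Psmf1 (-0.20) on the poly(A) controls, where Padi6 stood at 0. On both controls they were those of Actb (-0.90 and -1.38), Zp3 (-0.45 and -0.93) and Gdf9 (-0.41 and -0.89). The cause was not tested. Leaving out 1 array at a time gave 4279 to 4422 lower and 5685 to 5813 higher genes, with 2120 to 2193 and 1217 to 1282 by at least 4-fold. With the replicate number as a block 4432 and 5903 genes were called, and the block moved no count by over 1.5 times. Levels below the overall median bound no fold, since the added constant sets them.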
